A study of Homo sapiens with 6 samples.

Results

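The 57 genes described here are the bright long intergenic noncoding RNAs of the human multiple myeloma line LP-1. They were chosen from 6 arrays as the genes with a symbol starting with LINC whose mean over all arrays was at least 6 on the log2 scale of the deposited values. Where a symbol had several probe sets, which are the array's groups of probes for a transcript, the brightest one was used. Only probe sets annotated with a single gene symbol were used. These held 942 symbols starting with LINC among 33616 genes, and the 57 make up 6.05% of the 942. The choice rests on brightness in these same arrays, so the levels below are a description. The last 3 genes inside the threshold were LINC00273 at 6.15, LINC01394 at 6.11 and LINC01480 at 6.02, and the first 3 outside it were LINC01233 at 5.98, LINC02585 at 5.93 and LINC00528 at 5.89.

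Long intergenic noncoding RNAs are transcribed, usually by RNA polymerase II, from stretches between protein-coding genes, and hold no long reading frame. Some act at the locus they come from, on the transcription of their neighbours, and others act elsewhere by binding chromatin complexes, RNA-binding proteins or other RNAs. The LINC symbols are placeholders for genes with no known function to be named after, so genes with close numbers need not be related. In myeloma, a cancer of plasma cells, several long noncoding RNAs have been followed as markers of disease and of growth.

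LP-1 is an established line that stands for malignant plasma cells, and it was grown in 3 groups of 2 arrays labelled as biological replicates. L.A. cells grew for a labelled 9 months in acidic medium, whose extracellular pH (pHe) was 6.8. S.A. cells grew for a labelled 2 weeks in the same medium at pHe 6.8, and Ctrl cells for a labelled 9 months in control medium at pHe 7.4. The sample descriptions give the L.A. time as 8 to 10 weeks and the series design as 8 to 10 months, and they give the S.A. time as 2 to 3 weeks and 2 to 4 weeks. The S.A. cells differed from the Ctrl cells in time in culture as well as in pHe, and these cannot be told apart. All groups came from the same line, so nothing here shows how other myeloma lines behave.

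Each array had a median between 3.77 and 3.80 over 135574 probe sets, and the 10 plasma cell markers fixed for the check, SDC1, TNFRSF17 and XBP1 among them, averaged 11.4 or more. Of 17 markers of T and NK, monocyte, stromal, endothelial, erythroid and platelet cells, 15 averaged less than 6. The others were COL1A1 at 7.32 and PECAM1 at 11.3, which was close to SDC1, the dimmest of the plasma cell markers, at 11.4. In the deposited values, replicates of a group had a pooled SD of 0.26 among the bright LINC genes. A gene was called at a limma adjusted p under 0.05, with p-values adjusted over 21070 genes, and differences are given as log2 difference ± SE. The deposited table held almost no difference between replicate numbers, which leaves 2 residual degrees of freedom where the fit counts 3. The p-values and SEs of the fit, and the pooled SD above, are therefore too small. Counts and p-values with replicate number as a block are therefore given where they change a call. In bulk RNA, a change in how many cells express a gene and a change in RNA per cell cannot be told apart.

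As a check of the name, 54 of the 57 genes were found in the RefSeq gene table of GRCh38.p14, 53 of them as long noncoding RNAs. Of the 53 with both a location and printed levels, 44 overlapped no protein-coding gene and 9 lay partly or wholly within the span of one, so "intergenic" did not hold for each. LINC00266-2P and LINC00266-4P come from probe sets named for the Y chromosome and their levels are not given, which leaves 55 genes with values. The brightness of different probe sets depends on their probes as well as on RNA amount, so the order of the genes by level is an order of signals. The 6 brightest were LINC00891 at a mean of 15.94, LINC01002 at 14.79, LINC00997 at 12.92, LINC00649 at 11.92, LINC03009 at 11.78 and LINC01000 at 11.43. In all, 14 genes averaged 10 or more, 12 lay between 8 and 10, and 31 lay below 8, against a median of 3.50 over all 942 LINC genes.

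In S.A. cells more of the bright LINC genes rose than fell. Of the 57, 17 were higher and 1 was lower in S.A. than in Ctrl cells, where 6.23% of all genes tested were higher and 8.55% lower, 14.8% in all (limma, adjusted p under 0.05). With replicate number as a block, 10 were higher and 1 lower, against 2.9% and 3.49% of all genes, 6.39% in all. The median difference of the 57 was 0.47 and that of all genes -0.04, and 75.4% of the 57 lay above 0 against 45.6% of all genes. Of the 287 dimmer LINC genes that could be tested, 6 were higher and 6 lower, 2.09% each way, with 26 higher and 17 lower at an unadjusted p under 0.05; the difference between bright and dimmer genes was not tested. Brightness alone also goes with more calls, since among all 10901 genes with a mean of at least 6, 9.39% were higher and 13.6% lower. Without Ctrl replicate 1, 10 of the 57 were called in place of 18.

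In L.A. cells the called genes again lay mostly above Ctrl. With limma, 7 of the 57 were higher and 1 was lower, where 1.61% of all genes were higher and 1.59% lower, 3.2% in all. With the block 5 and 1 were called, against 0.769% and 0.555%, 1.32% in all. The median was 0.11, against -0.03 for all genes. Of the 287 dimmer LINC genes, limma called 2 higher and 0 lower, 0.697% and 0.0%, with 18 and 15 at an unadjusted p under 0.05. Of all genes with a mean of at least 6, 2.44% were higher and 2.43% lower. Without Ctrl replicate 1 or Ctrl replicate 2, 5 of the 57 were called in place of 8, and without L.A. replicate 2, 4 were. Set directly against S.A. cells, L.A. cells had 4 of the 57 higher and 7 lower, where 8.7% of all genes were higher and 7.24% lower, 15.9% in all. With the block 3 and 6 were called, against 4.85% and 3.8%, 8.65% in all. The dimmer LINC genes had 9 higher and 5 lower here, 3.14% and 1.74%, and all genes with a mean of at least 6 had 13.8% and 11.2%. The first 2 comparisons share the Ctrl arrays and the third shares arrays with both, so their counts are not independent of each other.

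**Figure D1:**
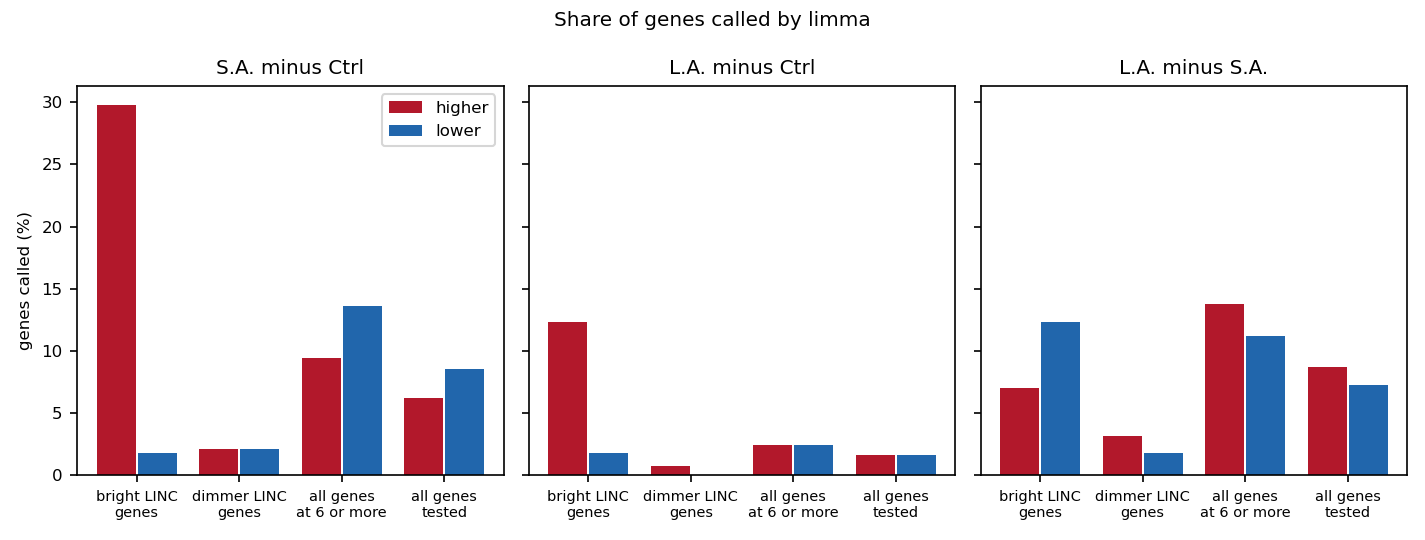
Share of genes called higher (red) or lower (blue) by limma at an adjusted p under 0.05, in % of the genes of each set, for the 57 bright LINC genes, the 287 dimmer LINC genes tested, the 10901 genes with a mean of at least 6 and all 21070 genes tested. The shares of the bright LINC genes include 7 called genes with a group mean below 6. The bright LINC genes stand at 29.8% higher and 1.75% lower in S.A. minus Ctrl, 12.3% higher and 1.75% lower in L.A. minus Ctrl, and 7.02% higher and 12.3% lower in L.A. minus S.A.

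Counted by arrays that do not overlap between groups, 33 of the 57 were higher and 8 lower in S.A. than in Ctrl cells, where 24.9% and 32.3% of all genes were. In L.A. against Ctrl cells the counts were 21 higher and 8 lower, beside 22.3% and 28.1% of all genes, and in L.A. against S.A. cells 17 higher and 24 lower, beside 30.1% and 27.3%. The group with the highest mean was L.A. for 22, S.A. for 29 and Ctrl for 6 of the 57, where over all genes it was L.A. for 30.6%, S.A. for 34.3% and Ctrl for 35.1%. Of the 57, 47 had a mean of at least 6 in every group, and 10 had a group mean below 6 and so passed the brightness threshold partly through the groups where they were high. Among the 23 called in at least 1 comparison these were 16 and 7. The 7 are LINC00662, LINC00944, LINC01480, LINC02693, LINC01229, LINC01055 and LINC01096, and their calls do not support the counts above. LINC00662, LINC00944, LINC01480 and LINC02693 are among the genes counted as higher in S.A. than in Ctrl cells. LINC01229 is among those counted as higher in L.A. than in Ctrl cells. The 7 also include the only gene called lower in S.A. than in Ctrl cells, LINC01096. The only one called lower in L.A. than in Ctrl cells, LINC01055, is among them too.

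**Figure D2:**
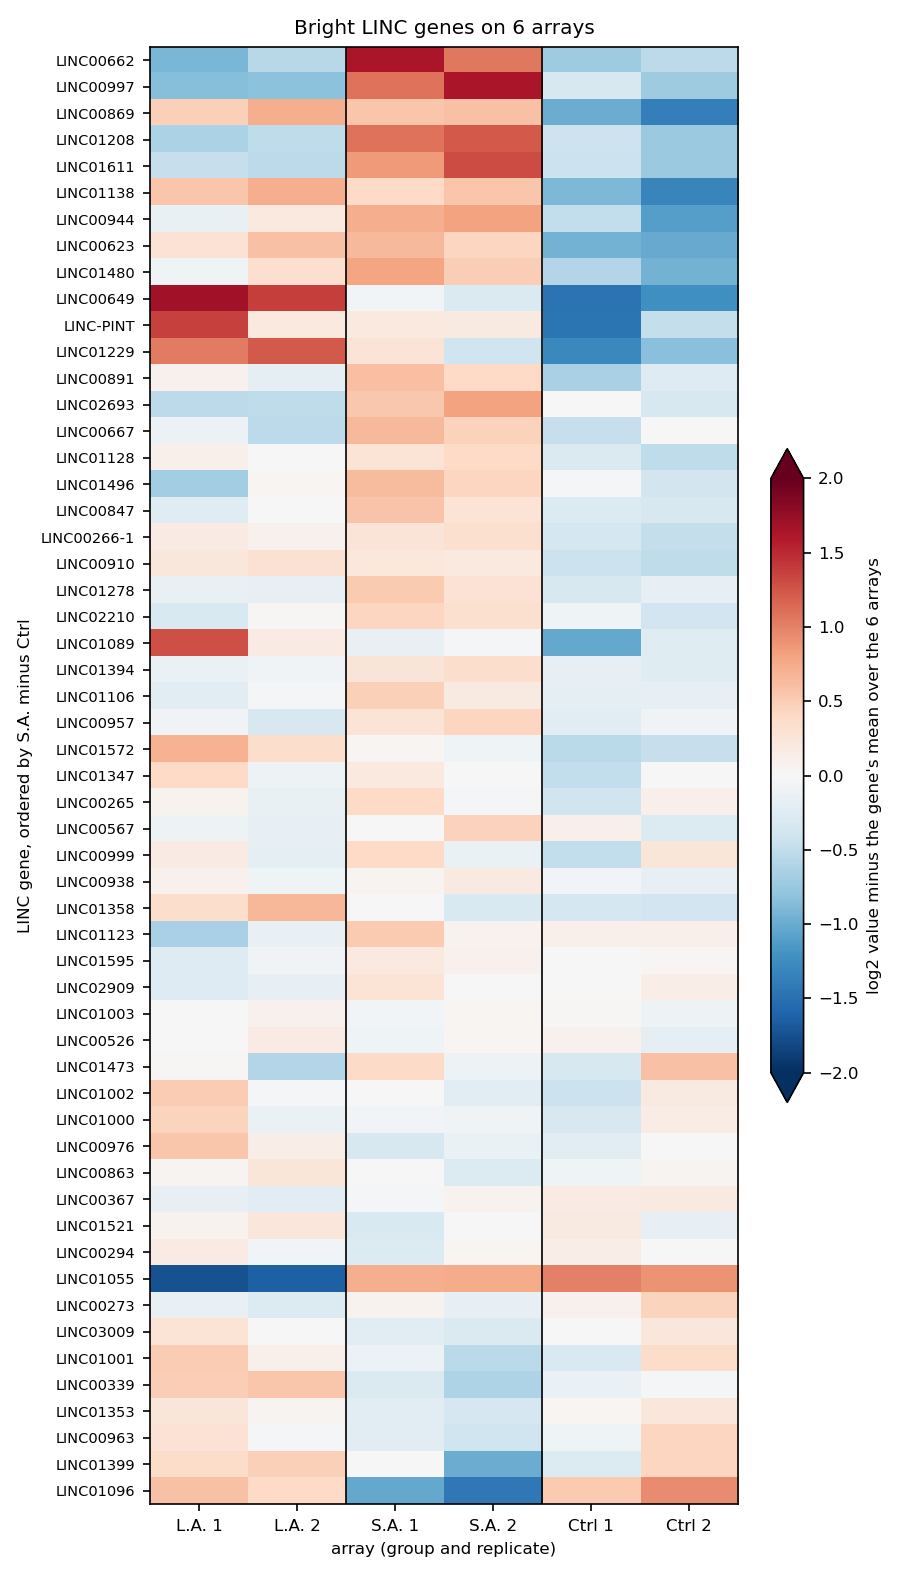
Log2 value on each array minus the gene's mean over the 6 arrays (colour, red above and blue below the mean, colours saturating at 2), for the 55 LINC genes with values, with L.A., S.A. and Ctrl arrays from left to right and genes ordered by S.A. minus Ctrl. The genes at the top are red in the S.A. arrays, and some of them, such as LINC00869 and LINC00623, are also red in the L.A. arrays.

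The largest rise of the 57 belonged to LINC00649, a bright transcript of chromosome 21. LINC00649 had log2 values of 13.59 and 13.30 in the L.A. arrays, 11.85 and 11.62 in the S.A. arrays and 10.44 and 10.69 in the Ctrl arrays. The 3 groups did not overlap, with L.A. highest and Ctrl lowest. The L.A. level was 7.36-fold that of Ctrl, which like every fold here takes the deposited values as log2 values, and this is a log2 difference of 2.88 ± 0.18 (limma adjusted p = 0.00416). S.A. cells differed from Ctrl by 1.17 ± 0.18 (adjusted p = 0.0134, and 0.0528 without Ctrl replicate 1), and L.A. from S.A. cells by 1.71 ± 0.18 (adjusted p = 0.00336). Its nearest protein-coding gene, ATP5PO, which encodes a subunit of the mitochondrial ATP synthase, differed by -0.08 in S.A. and 0.59 in L.A. against Ctrl cells and was not called.

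LINC00869, LINC01138, LINC00623 and LINC00910 were, like LINC00649, called higher than Ctrl in both acid groups. The arrays gave LINC00869 values of 11.18 and 11.43 in L.A. cells, 11.26 and 11.29 in S.A. cells and 9.71 and 9.33 in Ctrl cells. LINC01138 stood at 10.16 and 10.34 in L.A., 10.01 and 10.17 in S.A. and 8.71 and 8.29 in Ctrl cells. All 4 acid arrays lay above both Ctrl arrays for each gene, and the acid groups overlapped with each other. LINC00869 differed from Ctrl by 1.79 ± 0.18 in L.A. cells and by 1.76 ± 0.18 in S.A. cells (limma adjusted p = 0.00963 and 0.00464). LINC01138, an RNA reported to promote the growth of liver cancer cells, differed from Ctrl by 1.75 ± 0.19 in L.A. and 1.59 ± 0.19 in S.A. cells (adjusted p = 0.0114 and 0.00636). All 4 of these calls were also made with the block.

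The near-equal shifts of LINC00869 and LINC01138 have to be read beside their sequences, which are shown because they share part of their start regions. In the RefSeq promoter table, which gives 250 bases before to 50 after a start, the 2 windows hold an identical run of 82 bases, written in capitals, at the end of the LINC00869 window and at the beginning of the LINC01138 window. LINC00869 is at chr1:149606762-149607061 on the plus strand and LINC01138 at chr1:148459871-148460170 on the minus strand of GRCh38.p14.
LINC00869: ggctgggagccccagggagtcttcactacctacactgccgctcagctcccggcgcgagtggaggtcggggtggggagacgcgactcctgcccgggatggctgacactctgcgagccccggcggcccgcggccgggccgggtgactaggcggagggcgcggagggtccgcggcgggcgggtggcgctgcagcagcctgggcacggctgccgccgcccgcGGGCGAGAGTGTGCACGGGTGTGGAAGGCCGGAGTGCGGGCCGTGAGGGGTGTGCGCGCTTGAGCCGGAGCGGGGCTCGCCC
LINC01138: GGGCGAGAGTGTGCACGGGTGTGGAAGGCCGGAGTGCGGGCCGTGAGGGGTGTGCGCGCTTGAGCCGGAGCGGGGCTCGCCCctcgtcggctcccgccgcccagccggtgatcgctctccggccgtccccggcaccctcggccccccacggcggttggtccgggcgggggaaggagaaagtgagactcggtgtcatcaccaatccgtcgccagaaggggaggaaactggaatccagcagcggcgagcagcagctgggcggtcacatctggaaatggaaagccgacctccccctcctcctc
Over the 666 pairs of the 37 bright LINC genes with a promoter in the table, the longest run shared on the same strand had a median of 8 bases. This run reached 20 bases in 3 pairs, this one, LINC01001 with LINC01002 at 126 bases, and LINC01106 with LINC01123 at 289 bases. Read on opposite strands, LINC00526 and LINC00667, whose windows overlap in the genome, share 170 bases. In LINC01138 the run of 82 bases lies before the start, so these windows do not show that the 2 RNAs share it. Whether probes for such pairs take up each other's RNA was not tested, so LINC00869 and LINC01138 cannot be taken as 2 independent cases. The gene table lists FAM91A2 as an older name of LINC00869, and FAM91A1, the coding gene that this name points to, differed from Ctrl by 0.01 in L.A. and 0.13 in S.A. cells and was not called.

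Values of LINC00623 were 10.70 and 11.00 in L.A. cells, 11.05 and 10.84 in S.A. cells and 9.46 and 9.41 in Ctrl cells. Here too all acid arrays lay above both Ctrl arrays. The differences of LINC00623, a gene of chromosome 1, were 1.41 ± 0.17 in L.A. and 1.51 ± 0.17 in S.A. cells (limma adjusted p = 0.0142 and 0.00539). The L.A. call was lost when Ctrl replicate 1, Ctrl replicate 2 or L.A. replicate 2 was left out, at adjusted p of 0.0525, 0.0591 and 0.0683. Its second, dimmer probe set differed the same way, by 0.72 and 1.04. The first listed start window of LINC00623 shares at most 11 bases with those of LINC00869 and LINC01138. A start window does not show whether probes take up another gene's RNA. That was not tested here either, so LINC00623 is not shown to be independent of the other 2. LINC00910 had log2 values of 6.89 and 6.97 in the L.A. arrays, 6.87 and 6.86 in the S.A. arrays and 6.24 and 6.16 in the Ctrl arrays. The difference of LINC00910 was smaller, 0.72 ± 0.13 in L.A. and 0.67 ± 0.13 in S.A. cells, and was not called with the block (limma adjusted p = 0.244 and 0.133).

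**Figure D3:**
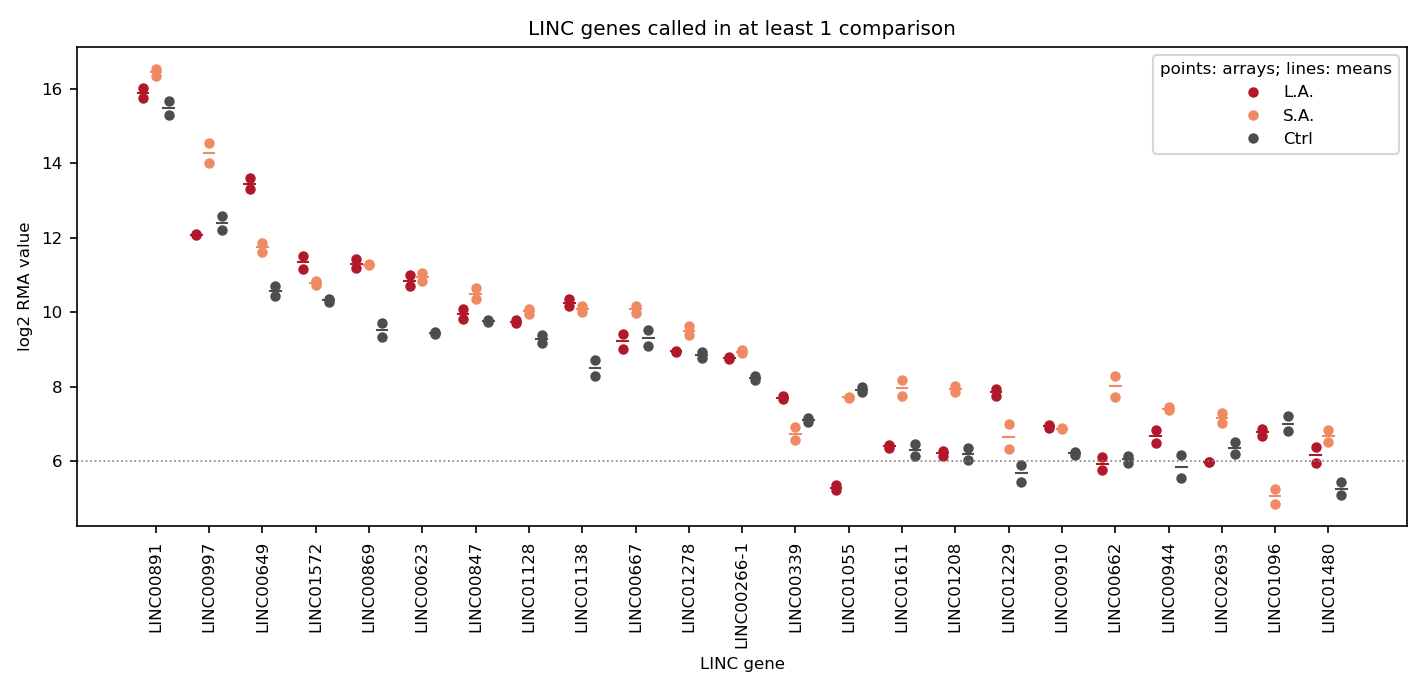
Log2 values (vertical axis) of the 23 LINC genes called in at least 1 comparison, ordered by mean, with L.A. in dark red, S.A. in orange and Ctrl in grey from left to right within each gene. Points are arrays, short lines group means, and the dotted line is the threshold of 6; LINC00649 shows its L.A. points at 13.59 and 13.30, above S.A. and Ctrl, and LINC01055 shows them at 5.23 and 5.34, below both.

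A further set was high in S.A. cells, with L.A. cells near Ctrl. The arrays gave LINC00997 values of 12.07 and 12.10 in L.A. cells, 14.02 and 14.55 in S.A. cells and 12.60 and 12.21 in Ctrl cells. LINC00662 stood at 5.74 and 6.10 in L.A., 8.29 and 7.72 in S.A. and 5.95 and 6.14 in Ctrl cells. For both genes the S.A. arrays stood apart, above the other 4. LINC00997 was 3.68-fold higher in S.A. than in Ctrl cells, by 1.88 ± 0.23, and its L.A. level lay -2.20 ± 0.23 from that of S.A. cells (limma adjusted p = 0.00668 and 0.00307). LINC00662, reported to promote growth in several carcinomas, rose 3.88-fold in S.A. cells, by 1.96 ± 0.24, and L.A. minus S.A. was -2.08 ± 0.24 (adjusted p = 0.00668 and 0.00414). KBTBD2, the nearest coding gene of LINC00997, differed by -0.07 in S.A. minus Ctrl.

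The start region of LINC00662 is shown because this gene had the largest rise in S.A. cells. The window is chr19:27793891-27794190 on the minus strand of GRCh38.p14 (RefSeq), and the capitals mark the GC box letters, found on the opposite strand just after the start.
LINC00662: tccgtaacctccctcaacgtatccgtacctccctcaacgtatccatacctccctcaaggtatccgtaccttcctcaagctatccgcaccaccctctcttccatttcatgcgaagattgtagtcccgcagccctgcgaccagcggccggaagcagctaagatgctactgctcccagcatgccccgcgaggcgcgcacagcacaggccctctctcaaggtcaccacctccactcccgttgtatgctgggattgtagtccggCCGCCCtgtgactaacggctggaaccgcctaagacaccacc

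Values of LINC01208 were 6.14 and 6.26 in L.A. cells, 7.86 and 8.01 in S.A. cells and 6.36 and 6.03 in Ctrl cells. LINC01611 had log2 values of 6.43 and 6.35 in the L.A. arrays, 7.74 and 8.18 in the S.A. arrays and 6.45 and 6.13 in the Ctrl arrays. Again both S.A. arrays exceeded the other 4. LINC01208 rose by 1.74 ± 0.17 in S.A. cells and differed by -1.73 ± 0.17 between L.A. and S.A. cells (limma adjusted p = 0.00390 and 0.00253). LINC01611 rose by 1.66 ± 0.20 and differed by -1.57 ± 0.20 in the same comparisons (adjusted p = 0.00668 and 0.00608). The calls of LINC00997, LINC00662, LINC01208 and LINC01611 were kept in each of the 14 alternative settings, the block and the loss of any 1 array included. The arrays gave LINC02693 values of 5.97 and 5.98 in L.A. cells, 7.02 and 7.29 in S.A. cells and 6.50 and 6.17 in Ctrl cells. LINC02693 was lower in L.A. than in S.A. cells, by -1.18 ± 0.18 (adjusted p = 0.00919), and its difference of 0.82 ± 0.18 between S.A. and Ctrl cells was not called with the block (adjusted p = 0.0968). The nearest coding genes of LINC01208 and LINC01611 are the corepressor subunit gene TBL1XR1 and the centrosome protein gene CEP162, neither within 10 kb. They were not called in any comparison, at -0.01 and 0.45 in S.A. minus Ctrl.

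LINC00944 and LINC01480 were highest in S.A. cells and had L.A. levels between S.A. and Ctrl. LINC00944 stood at 6.49 and 6.84 in L.A., 7.37 and 7.45 in S.A. and 6.15 and 5.55 in Ctrl cells. Values of LINC01480 were 5.94 and 6.37 in L.A. cells, 6.82 and 6.51 in S.A. cells and 5.43 and 5.07 in Ctrl cells. For each of them all 4 acid arrays lay above the Ctrl arrays. LINC00944 rose in S.A. cells by 1.56 ± 0.24 and LINC01480 by 1.41 ± 0.22 (limma adjusted p = 0.0126 and 0.0139), and both were called with the block. Without Ctrl replicate 2 the adjusted p of LINC01480 was 0.0517. In L.A. cells they differed from Ctrl by 0.82 ± 0.24 and 0.90 ± 0.22, which was not called (adjusted p = 0.135 and 0.0951).

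LINC00891, LINC01128, LINC00847, LINC00266-1 and LINC01278 were called higher in S.A. cells by smaller amounts, and none of them was called with the block. LINC00891 had log2 values of 16.03 and 15.76 in the L.A. arrays, 16.54 and 16.34 in the S.A. arrays and 15.30 and 15.69 in the Ctrl arrays. As the brightest of the 57, LINC00891 differed by 0.95 ± 0.19 in S.A. minus Ctrl (limma adjusted p = 0.0278, and 0.0736 with the block). The arrays gave LINC00847 values of 9.82 and 10.07 in L.A. cells, 10.64 and 10.35 in S.A. cells and 9.80 and 9.75 in Ctrl cells. LINC01128 stood at 9.78 and 9.69 in L.A., 9.96 and 10.08 in S.A. and 9.39 and 9.18 in Ctrl cells. These 2 had S.A. arrays above all others. LINC00847 differed by 0.72 ± 0.17 and LINC01128 by 0.73 ± 0.15 (adjusted p = 0.0397 and 0.0260, and 0.131 and 0.110 with the block). ZFP62, a zinc finger gene whose span overlaps LINC00847, rose by 0.88 in S.A. cells (adjusted p = 0.0175, and 0.0724 with the block).

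Values of LINC00266-1 were 8.80 and 8.73 in L.A. cells, 8.91 and 8.97 in S.A. cells and 8.29 and 8.18 in Ctrl cells. LINC01278 had log2 values of 8.95 and 8.94 in the L.A. arrays, 9.62 and 9.39 in the S.A. arrays and 8.78 and 8.94 in the Ctrl arrays. LINC00266-1 lay higher in S.A. than in Ctrl cells by 0.70 ± 0.13 and LINC01278 by 0.65 ± 0.15 (limma adjusted p = 0.0224 and 0.0399, and 0.115 and 0.157 with the block). LINC00266-1 has near copies among the LINC00266 probe sets, so signal shared with them was not tested. The proliferation markers MKI67, TOP2A and CCNB1 moved with the S.A. group, by -3.15, -1.50 and -1.58 against Ctrl cells (limma adjusted p = 0.00171, 0.00355 and 0.0439, the last of which was 0.0508 with the block), and their part in the rises of the LINC genes was not tested.

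**Figure D4:**
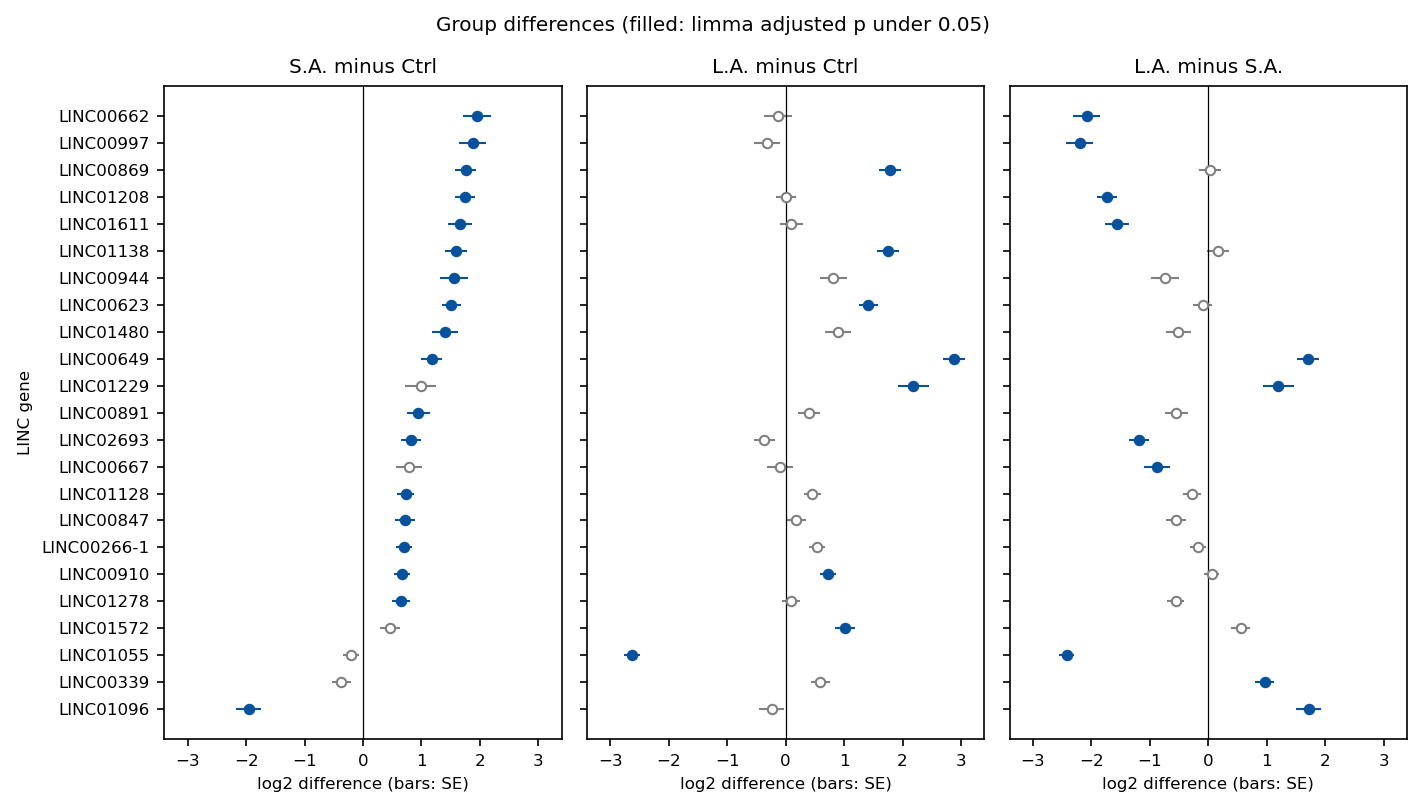
Log2 difference with its limma SE (horizontal axis) for the 23 LINC genes called in at least 1 comparison, in S.A. minus Ctrl, L.A. minus Ctrl and L.A. minus S.A. Filled points passed an adjusted p under 0.05; LINC00662 lies at 1.96 and LINC01096 at -1.96 in S.A. minus Ctrl, LINC00649 at 2.88 and LINC01055 at -2.64 in L.A. minus Ctrl.

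LINC01096, on chromosome 4, was the 1 bright LINC gene called lower in S.A. than in Ctrl cells. The arrays gave LINC01096 values of 6.86 and 6.67 in L.A. cells, 5.26 and 4.84 in S.A. cells and 6.80 and 7.22 in Ctrl cells. Both S.A. arrays lay below the other 4, while the L.A. and Ctrl arrays overlapped. The S.A. level was 3.88-fold lower than that of Ctrl, a log2 difference of -1.96 ± 0.22 (limma adjusted p = 0.00552), and L.A. minus S.A. was 1.72 ± 0.22 (adjusted p = 0.00573). Both calls were kept in all 14 settings. LINC01096 overlaps the span of NKX3-2, a homeobox gene, which averaged 3.99 and differed by -0.09 between S.A. and Ctrl cells. Its start region, at chr4:13547775-13548074 on the minus strand of GRCh38.p14 (RefSeq), is printed for this fall, and the capitals mark an E-box, the letters CACGTG, shortly after the start.
LINC01096: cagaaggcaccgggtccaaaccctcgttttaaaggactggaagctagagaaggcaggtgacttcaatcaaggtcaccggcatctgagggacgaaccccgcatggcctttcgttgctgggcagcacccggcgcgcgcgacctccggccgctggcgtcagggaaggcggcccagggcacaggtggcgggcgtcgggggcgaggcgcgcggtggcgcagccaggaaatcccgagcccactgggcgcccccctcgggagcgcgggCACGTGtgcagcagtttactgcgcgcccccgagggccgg

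LINC01055, on chromosome 13, was the 1 bright LINC gene called lower in L.A. than in Ctrl cells. LINC01055 stood at 5.23 and 5.34 in L.A., 7.70 and 7.72 in S.A. and 7.98 and 7.86 in Ctrl cells. The L.A. arrays lay far below the others, and the S.A. arrays lay just below the Ctrl arrays. The L.A. level was 6.21-fold lower than that of Ctrl, by -2.64 ± 0.14 on the log2 scale (limma adjusted p = 0.00186), and L.A. minus S.A. was -2.43 ± 0.14 (adjusted p = 0.000564). S.A. minus Ctrl was -0.21 ± 0.14 (adjusted p = 0.355). Both L.A. calls were kept in all 14 settings. The nearest coding gene, CBY2, averaged 3.84, near the array median, and was not called. The start region of LINC01055, chr13:45701135-45701434 on the minus strand of GRCh38.p14 (RefSeq), is shown for this fall. Capitals mark the letters of a TATA box (TATAAA) at -139 from the start, and those of a CCAAT box, read on the opposite strand, at -86.
LINC01055: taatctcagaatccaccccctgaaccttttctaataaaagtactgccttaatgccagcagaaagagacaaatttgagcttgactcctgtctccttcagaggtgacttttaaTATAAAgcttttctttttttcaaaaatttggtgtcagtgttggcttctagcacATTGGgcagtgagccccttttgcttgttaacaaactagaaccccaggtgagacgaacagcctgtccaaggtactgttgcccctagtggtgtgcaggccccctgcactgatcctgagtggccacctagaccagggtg

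The nearest coding gene of LINC01229, on chromosome 16, is that of the transcription factor MAF, which lies more than 10 kb away. MAF is overexpressed in a subset of myelomas. Values of LINC01229 were 7.75 and 7.94 in L.A. cells, 6.98 and 6.32 in S.A. cells and 5.44 and 5.89 in Ctrl cells. Both L.A. arrays stood above the S.A. arrays, and these above the Ctrl arrays. L.A. minus Ctrl was 2.18 ± 0.27 (limma adjusted p = 0.0161, and 0.0568 without L.A. replicate 2). L.A. minus S.A. was 1.20 ± 0.27 (adjusted p = 0.0335, and 0.0508 with the block), and the adjusted p was 0.0804 without L.A. replicate 1, 0.112 without L.A. replicate 2 and 0.0869 without S.A. replicate 2. S.A. minus Ctrl was 0.99 ± 0.27 and was not called (adjusted p = 0.0609). A second, dimmer probe set differed by 1.11 in L.A. and by 0.01 in S.A. against Ctrl cells, so the position of the S.A. cells depended on the probe set.

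The start of LINC01229 lies 61 bases from that of MAFTRR, a noncoding RNA on the opposite strand that was described as a regulator of MAF in human T cells, and the first stretches of both genes overlap. The window at chr16:79770221-79770520, plus strand of GRCh38.p14 (RefSeq), is shown for this overlap, and the capitals run from the LINC01229 start to the end of the window.
LINC01229: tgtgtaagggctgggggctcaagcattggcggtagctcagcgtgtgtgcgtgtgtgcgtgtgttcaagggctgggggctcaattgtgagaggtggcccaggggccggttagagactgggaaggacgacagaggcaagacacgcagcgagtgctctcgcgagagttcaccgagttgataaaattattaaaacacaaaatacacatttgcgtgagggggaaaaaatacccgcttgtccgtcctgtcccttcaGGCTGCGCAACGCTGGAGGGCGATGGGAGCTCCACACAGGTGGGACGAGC
MAFTRR had log2 values of 9.09 and 9.22 in the L.A. arrays, 7.89 and 7.70 in the S.A. arrays and 7.31 and 7.14 in the Ctrl arrays. MAFTRR differed from Ctrl by 1.93 in L.A. cells (limma adjusted p = 0.00583) and by 0.57 in S.A. cells (adjusted p = 0.0571), with all acid arrays above the Ctrl arrays. The arrays gave MAF values of 14.30 and 14.54 in L.A. cells, 10.87 and 10.55 in S.A. cells and 12.59 and 12.65 in Ctrl cells. MAF itself was highest in L.A. and lowest in S.A. cells, with no overlap. It rose by 1.80 in L.A. cells and fell by 1.90 in S.A. cells against Ctrl (limma adjusted p = 0.00779 and 0.00347), and both calls were made with the block. In L.A. cells all 3 genes of the locus were thus above Ctrl, while in S.A. cells MAF was below Ctrl and the noncoding neighbours were not called. Probes within the overlap can tell these genes apart only by strand. Whether the probes lie there, and whether they read a single strand, is not stated.

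**Figure D5:**
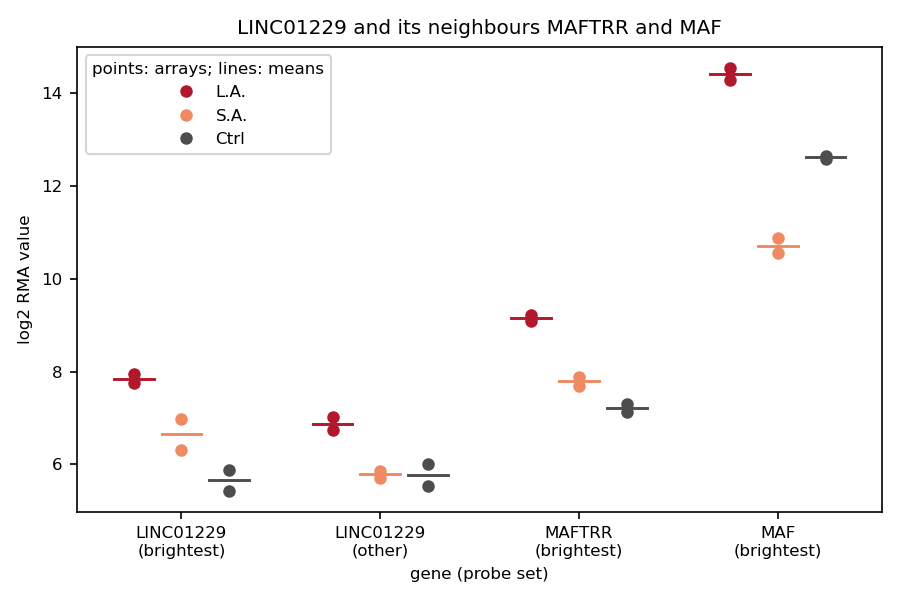
Log2 values (vertical axis) of both LINC01229 probe sets, MAFTRR and MAF on the 6 arrays, with L.A. in dark red, S.A. in orange and Ctrl in grey from left to right; points are arrays and lines group means. MAF stands at 14.42 in L.A., 10.71 in S.A. and 12.62 in Ctrl cells, and LINC01229 on its brighter probe set at 7.85, 6.65 and 5.66 in the same groups.

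LINC01572, LINC00339 and LINC00667 had single calls. LINC01572 stood at 11.51 and 11.16 in L.A., 10.85 and 10.72 in S.A. and 10.28 and 10.36 in Ctrl cells. L.A. minus Ctrl of LINC01572 was 1.02 ± 0.17 (limma adjusted p = 0.0359, and 0.114 with the block). Values of LINC00339 were 7.67 and 7.73 in L.A. cells, 6.90 and 6.57 in S.A. cells and 7.06 and 7.17 in Ctrl cells. Its L.A. arrays were the highest and its S.A. arrays the lowest, and L.A. minus S.A. was 0.97 ± 0.16 (adjusted p = 0.0134, and 0.0464 with the block). Without L.A. replicate 1, L.A. replicate 2 or S.A. replicate 2 that call was lost, at adjusted p of 0.0596, 0.0669 and 0.0574. LINC00667 had log2 values of 9.41 and 9.01 in the L.A. arrays, 10.18 and 9.99 in the S.A. arrays and 9.08 and 9.53 in the Ctrl arrays. L.A. minus S.A. of LINC00667 was -0.87 ± 0.22 (adjusted p = 0.0483, and 0.102 with the block). The start of LINC00667 lies 71 bases from that of LINC00526, another bright LINC gene, and the 2 are transcribed away from each other. LINC00526 differed by 0.10 in L.A. minus S.A. and by 0.03 in S.A. minus Ctrl, so this pair did not share a called change.

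The nearest protein-coding genes were also looked up for the called LINC genes, at any distance. Of the 53 bright LINC genes with a location and printed levels, 19 overlapped a coding gene or lay within 10 kb of one. Of the called LINC genes whose nearest coding gene was among those tested, there were 9 in S.A. minus Ctrl, 6 in L.A. minus Ctrl and 7 in L.A. minus S.A. In each comparison 1 neighbour was called in the same direction, ZFP62 in the first and MAF in the others, and these counts are too small to be read against the 14.8%, 3.2% and 15.9% called over all genes. PPIAL4A, nearest to LINC00623, SAMD11, nearest to LINC01128, and PPIAL4G, nearest to LINC01138, differed by -0.21, 0.08 and -0.03 in S.A. minus Ctrl. PMFBP1, nearest to LINC01572, differed by 0.42 in L.A. minus Ctrl. None of these coding genes lay within 10 kb. Over 31 pairs of a LINC gene and its nearest coding gene tested, Pearson's r of their differences was 0.09 in S.A. minus Ctrl. It was 0.27 in L.A. minus Ctrl and 0.18 in L.A. minus S.A. Spearman's rho, which uses ranks, was 0.18, 0.07 and 0.06 in the same order, so the order of the comparisons depended on the measure. Both are descriptions of values that share the same arrays. No microRNA hairpin of the RefSeq table was hosted by name in these genes.

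The letters of known promoter elements were searched on both strands in the start windows of the 37 genes, with the share over all 35116 windows of the table beside them. The AP-1 element TGANTCA was in 6 windows, 16.2%, against 7.71% of all, and the CCAAT box CCAAT in 19, 51.4%, against 34.6%. The E-box CACGTG was in 4, 10.8% against 7.26%, the TATA box TATAAA in 4, 10.8% against 11.5%, and the GC box GGGCGG in 17, 45.9% against 45.0%. LINC01001 and LINC01002, which share 126 bases, are both among the 6 with the AP-1 letters, and the others are LINC00339, LINC01358, LINC-PINT and LINC00963. Of these 6, LINC00339 alone was called in a comparison. A match of letters is a description of the window and not a binding site.

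The remaining 34 genes were not called in any comparison. Their group means spanned between 0.08 and 1.75, with a median span of 0.43. The widest was that of LINC-PINT, an RNA induced by the tumour suppressor p53. The arrays gave LINC-PINT values of 8.72 and 7.56 in L.A. cells, 7.56 and 7.53 in S.A. cells and 5.90 and 6.88 in Ctrl cells. All acid arrays lay above the Ctrl arrays, but the replicates of the L.A. and of the Ctrl group lay far apart, and L.A. minus Ctrl was 1.75 ± 0.45 (limma adjusted p = 0.106). LINC01089 stood at 9.26 and 8.13 in L.A., 7.83 and 7.94 in S.A. and 6.95 and 7.73 in Ctrl cells. LINC01089, reported in breast cancer cells as an RNA lowered by epidermal growth factor, had the same order of groups and a difference of 1.36 ± 0.41 in L.A. minus Ctrl (adjusted p = 0.149).

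Of the 6 brightest genes, 3 were among the uncalled. Values of LINC01002 were 15.30 and 14.76 in L.A. cells, 14.79 and 14.57 in S.A. cells and 14.36 and 14.97 in Ctrl cells. LINC01000 had log2 values of 11.87 and 11.29 in the L.A. arrays, 11.38 and 11.34 in the S.A. arrays and 11.11 and 11.58 in the Ctrl arrays. The arrays gave LINC03009 values of 12.07 and 11.79 in L.A. cells, 11.58 and 11.50 in S.A. cells and 11.77 and 12.01 in Ctrl cells. Groups overlapped for LINC01002 and LINC01000 in each comparison, and the differences of the 3 lay between -0.35 and 0.39. LINC01347 had a second probe set, at a mean of 8.84, which differed by 1.52 in S.A. minus Ctrl where the brighter one differed by 0.36. The smallest span was that of LINC01003, with group means of 6.38 in L.A., 6.33 in S.A. and 6.31 in Ctrl cells.

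Long noncoding RNAs with other names are set beside these values, though they were not chosen by brightness, and 23 of them averaged at least 6. Of a list of 70 such genes, 42 had a probe set with that single symbol and 34 were tested. Whether the others are on the array under several symbols or another name was not checked. In S.A. minus Ctrl 10 were higher and 4 lower (limma), 3 and 2 with the block, in L.A. minus Ctrl 3 and 0, with 2 lower at an unadjusted p under 0.05, and in L.A. minus S.A. 6 and 2. With the block 2 and 0 were called in L.A. minus Ctrl, and 2 and 1 in L.A. minus S.A. Over all genes tested, limma called 14.8%, 3.2% and 15.9% in S.A. minus Ctrl, L.A. minus Ctrl and L.A. minus S.A. With the block these shares were 6.39%, 1.32% and 8.65%. HCP5, a transcript of the HLA class I region, rose by 1.87 in S.A. cells, and FTX, a regulator of XIST, by 1.79. FIRRE, which acts in nuclear organization, rose by 1.56, while SNHG19, a host of small nucleolar RNAs, fell by 1.64. In L.A. cells UCA1, first described in bladder cancer, rose by 1.82 and LUCAT1 by 1.47 against Ctrl. DLEU2, the host of the miR-15a and miR-16-1 hairpins, rose by 1.22 but was not called with the block (limma adjusted p = 0.0910). These rises began at low signal, with Ctrl means of 4.67 for UCA1, 3.61 for LUCAT1 and 3.77 for DLEU2. The median of all probe sets was 3.77. L.A. minus S.A. was 2.43 for UCA1, 1.04 for SNHG19, -1.82 for HCP5 and -1.03 for RPPH1, the RNA of ribonuclease P, and with the block SNHG19 and RPPH1 were not called (limma adjusted p = 0.0624 and 0.0653). The median over the 34 was 0.22 in S.A. minus Ctrl and 0.09 in L.A. minus Ctrl.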

How the data were processed

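RNA of 6 LP-1 cultures was measured on 1-colour arrays. The authors' deposited values are on a log2 scale, made with RMA in the Transcriptome Analysis Console per the submitters' processing notes; the log base is not stated and was taken as 2, although values reach 20.02, above the log2 range of a usual array scanner, and no versions, array build or detection calls were found. Of 135574 probe sets, the platform annotation gives 36176 a single gene symbol, 1119 several symbols and 98279 no symbol. Only those with a single symbol were used, with the brightest probe set taken for each symbol. The 21070 genes with a mean of at least 3.77, the median of all probe sets, were tested.

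Groups were compared with limma 3.58.1 in R 4.3.3 over all 6 arrays (moderated test without a trend, two-sided, Benjamini-Hochberg over all genes tested). An exact permutation of 2 against 2 arrays cannot go below p = 0.333, so no single-gene permutation test was made, and the number of arrays limits the precision. P-values rest on the spread between these cultures of 1 line only as far as the deposited values still hold it. The scripts were tested on simulated data.

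The sum of squares within groups held 1.18% for replicate number, whose share by degrees of freedom is 33.3%. With so little left for replicate number, deviations of arrays with the same number must correlate below 0 (-0.41, -0.47 and -0.57), so they cannot show whether the numbers pair the samples. No source used here says whether a replicate term was removed before deposit.

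The 57 genes and all lists were chosen with earlier results of these data known. Values on every array are given for each of the 57 called in at least 1 comparison and for the 6 brightest; LINC-PINT and LINC01089 were added after their values were seen. Of other long noncoding RNAs, at most the 4 largest called changes of a comparison are named. Promoter windows come from RefSeq (GRCh38.p14); 37 of the 57 had one.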

Additional observations from a re-analysis of the deposited data

Results flagged for a closer look

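For 11 of the 57 bright LINC genes the L.A. and S.A. cells differed from each other, by the limma test at an adjusted p under 0.05. The same test called 15.9% of all genes tested. Of all genes with a mean of at least 6 it called 13.8% higher and 11.2% lower. L.A. was higher in 4 of them, by log2 differences of 1.72 for LINC01096, 1.71 for LINC00649, 1.20 for LINC01229 and 0.97 for LINC00339. L.A. was lower in 7, at -2.43 for LINC01055, -2.20 for LINC00997, -2.08 for LINC00662, -1.73 for LINC01208, -1.57 for LINC01611, -1.18 for LINC02693 and -0.87 for LINC00667. In each of the 11 both L.A. arrays lay on the same side of both S.A. arrays. Over all genes tested, 30.1% lay higher and 27.3% lower in this way. LINC01229 and LINC00667 were not called with replicate number as a block, at adjusted p of 0.0508 and 0.102.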

How the results depend on the processing

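Of 37 called pairs of a LINC gene and a comparison none changed direction in the 14 alternative settings, 21 were called in every setting and 16 were lost in at least 1. With replicate number as a block, 11 LINC genes were called in S.A. minus Ctrl in place of 18, and over all genes 1347, 279 and 1823 were called in S.A. minus Ctrl, L.A. minus Ctrl and L.A. minus S.A. in place of 3113, 675 and 3360; that fit has 1 residual degree of freedom fewer. Leaving out 1 array at a time gave 10 to 13 called LINC genes in S.A. minus Ctrl, 4 to 7 in L.A. minus Ctrl in place of 8, and 8 to 11 in L.A. minus S.A. Over all genes it gave 1134 to 2486, 195 to 674 and 1503 to 2931 in the same order. The balance of all genes was less stable: without S.A. replicate 2, 770 were higher and 769 lower in S.A. minus Ctrl in place of 1312 and 1801, and the median of all genes in L.A. minus S.A. was -0.0068 in place of 0.015; with all probe sets averaged, 305 were higher and 321 lower in L.A. minus Ctrl in place of 339 and 336. The median of the LINC genes then lay between 0.28 and 0.52 in S.A. minus Ctrl, 0.11 and 0.17 in L.A. minus Ctrl, and -0.21 and -0.025 in L.A. minus S.A. A threshold of 5 in place of 6 gave 112 LINC genes and one of 7 gave 36. Fitting on genes with a mean of at least 6, where fewer genes are tested, called 22, 9 and 16 LINC genes. Apart from the fewer samples or genes stated, the cause of these changes was not tested. A lone array of a group is assumed to vary like the others. With 2 arrays a group and no detection calls, no LINC gene with a difference under 0.97 was called with the block.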
